A study of Homo sapiens with 42 samples.

Results

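Chromatin accessibility was followed over the distal long arm of chromosome 8, from 110 Mb to the end of the chromosome, in 4 lung cancer lines. The members were all counted regions of chromosome 8 starting from 110 Mb with a mean of at least 5 counts per library, apart from regions assigned to MYC, CASC11, PVT1 and 2 other CASC genes. They numbered 12417 of 1712125 regions in the 4 count tables, with 3132 in H1975, 2904 in PC9, 4456 in HCC827 and 1925 in HCC2935. The interval was selected because its regions moved in the H1975 libraries given AZD5153, so the values of that comparison are a description and carry no test of the selection. Comparisons of H1975 DTP or combo cells with control cells use the same control libraries as the selection. At the limits of the rule in H1975, the first member lay at 110026380 and the last region before it at 109737517, and mean counts just inside and outside the minimum were 5.0 and 4.917.

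ATAC-seq, the assay named in the titles and the series design, inserts sequencing adapters into open chromatin, so that a promoter or enhancer in use gives many reads and closed chromatin few. In a bulk library, more copies of the DNA, more cells with an open site and more openness per cell all give more counts and cannot be told apart. AZD5153 is a small-molecule inhibitor of proteins that read acetylated histones at active promoters and enhancers. The distal long arm of chromosome 8 carries the MYC oncogene amid a cluster of long non-coding RNA genes and far-acting enhancers, is often present in extra copies in carcinomas, and ends in a gene-dense stretch beside the telomere.

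All 4 lines are non-small cell lung cancer lines with a mutated EGFR gene. Control cells grew for 21 days without drug and then 3 days in DMSO. DTP (drug tolerant persister) cells were kept for 24 days in 500 nM osimertinib, an EGFR inhibitor, and combo cells had 21 days of osimertinib followed by 3 days of 150 nM AZD5153. AZD5153 cells had 21 days without drug followed by 3 days of 150 nM AZD5153, in PC9 and H1975 only. Each of the 14 groups held 3 libraries given as biological triplicates, and whether osimertinib was kept during the last 3 days of the combination is not stated.

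Total counts per library ran from 6200672 to 10062505 in H1975, 3989287 to 5193390 in PC9, 1724680 to 4242868 in HCC827 and 3968690 to 8066287 in HCC2935. Members took 1.17 to 1.24% of the counts in H1975, 1.38 to 1.48% in PC9, 1.42 to 2.24% in HCC827 and 0.572 to 0.752% in HCC2935. The biological coefficient of variation between libraries of a group was estimated at 3.2% for H1975, 10.1% for HCC2935 and 45.05% for HCC827. For PC9 the estimate was 0.988%, the lowest value that the estimation could return, so it is a floor and not a measured spread. The p-values measure only the spread between these libraries, which may be technical.

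The H1975 libraries given AZD5153 did not show one shift from 110 Mb to the end of the chromosome. The median change of the 2588 members tested was -0.06 (log2, AZD5153 against control), near the -0.04 of all regions of the line. It was 0.15 with library size as the only scaling, 0.16 with regions left out by the authors' symbols alone, -0.41 over members with at least 20 counts and -0.40 over the 2142 with at least 5 counts in control, so no direction is given for the members as a whole. A segmentation of chromosome 8 instead split the members into 4 stretches that moved in different directions. Regions before 127.047 Mb were lower, in a stretch that reached back to 63.964 Mb. A raised stretch ran from 127.053 to 128.515 Mb, the regions from 128.549 to 142.192 Mb lay slightly below control, and the end of the chromosome from 142.193 Mb lay above control.

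**Figure D1:**
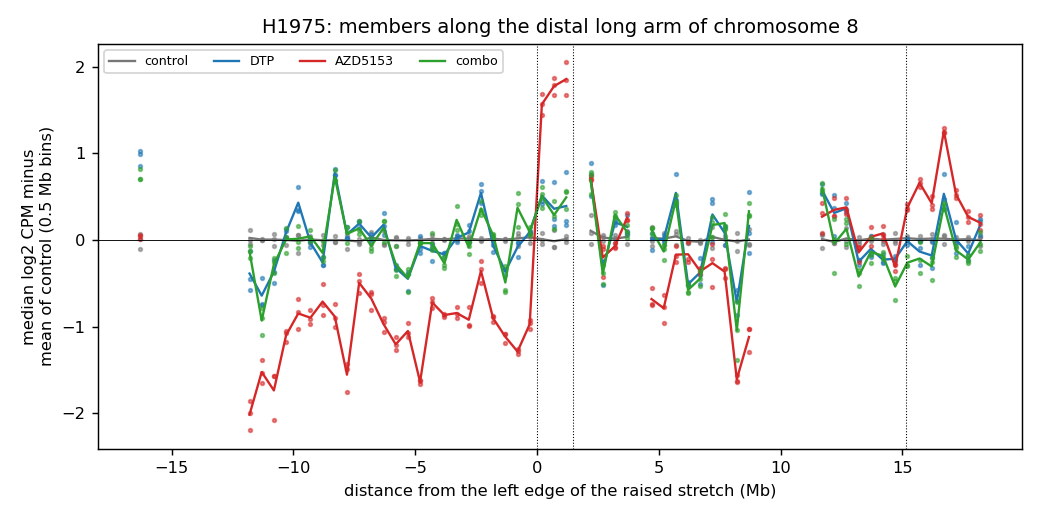
Median over members in bins of 0.5 Mb (with at least 5 members) of log2 CPM minus the mean of the control libraries, against the distance from the left edge of the raised stretch in Mb. Points are the 3 libraries of each group, lines are group means, gaps are bins with fewer members, and dotted lines mark the 3 edges. The 3 AZD5153 libraries lie below the others before the left edge, far above them in the raised stretch, and above them again after the last edge.

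The left edge was placed between the 2 regions that best split the values, so the step between them was chosen. The last region before it, at 127046600 to 127047101 and nearest to PRNCR1, a long non-coding RNA gene, changed by 0.05, and the first raised region, at 127052514 to 127053015, changed by 1.87 (mean of the AZD5153 libraries minus mean of control, in log2 CPM, the count on the TMM-scaled library size). The midpoint between them was 127.0498 Mb. Each AZD5153 library alone, against the same control libraries, placed the edge between 127.0427 and 127.0498 Mb (SD 4.1 kb, n = 3). Weak regions near it were mixed, with 0.305 at 127043141 before the edge and -0.081 at 127056718 after it. A strong region just outside, at 127041708 to 127042209 beside the non-coding RNA gene PCAT1 (mean count 501.2), was lower by -2.41 on that scale.

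The right edge was less certain. The mean of the libraries placed it at 128.5322 Mb, but each AZD5153 library alone placed it between 128.2741 and 128.2987 Mb (SD 14.2 kb, n = 3). The last run of raised regions, nearest to MIR1208, a microRNA gene, ended at 128274621 with changes of 1.57 to 2.59 over its last 5 regions. The 11 members beyond it, all nearest to the non-coding RNA gene LINC00824 and lying between 128322710 and 128515190, had a median change of -0.04 in the 10 tested. Those 11 members were counted within the raised stretch in what follows, which took its limits from the mean of the libraries.

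The raised stretch held 495 members in 2 blocks, 219 from 127.053 to 127.41 Mb and 276 from 127.933 to 128.515 Mb. The 876 regions left out by name lay between 127.197 and 128.123 Mb, all within the raised stretch and across the gap between its blocks. The blocks moved alike, with median changes of 1.95 in the first and 2.04 in the second (log2, AZD5153 against control). Median log2 CPM of the members relative to the control mean was -0.04 to 0.06 in the control libraries and 1.56, 1.87 and 1.71 in the AZD5153 libraries. No AZD5153 library came near the control range.

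Of the 443 members of the raised stretch tested, 395 were called higher and 17 lower with a median of 1.99, while 26.7% of all H1975 regions were called higher and 31.4% lower. Nothing is read from this count, because the interval was selected on the same comparison. Members with under 5 counts on average in the control libraries entered through the treated libraries of any group, so their rise was partly fixed by the count minimum. The 294 members that reached 5 counts in control had a median of 1.82.

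The members were also summed by their mean count over all libraries, treated ones included, so that the weak class holds members that entered through the treated libraries and the order of the ratios is partly fixed by the count minimum. The 335 members with a mean of 5 to 20 counts summed to 229 ± 10.3 CPM in control and 921 ± 112 CPM in AZD5153 libraries (SD, n = 3), a ratio of 4.03. The 107 members with 20 to 50 counts gave a ratio of 3.23. The 53 members with at least 50 counts summed to 1675 ± 40.6 and 2544 ± 154 CPM (SD, n = 3), a ratio of 1.52, and their median log2 change was 0.72. The medians of the members with 5 to 10, 10 to 20 and 20 to 50 counts were close to each other, at 2.01, 2.11 and 1.99. Over the whole raised stretch the sum rose from 2152 ± 49.5 to 4270 ± 303 CPM (SD, n = 3), a ratio of 1.98.

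**Figure D2:**
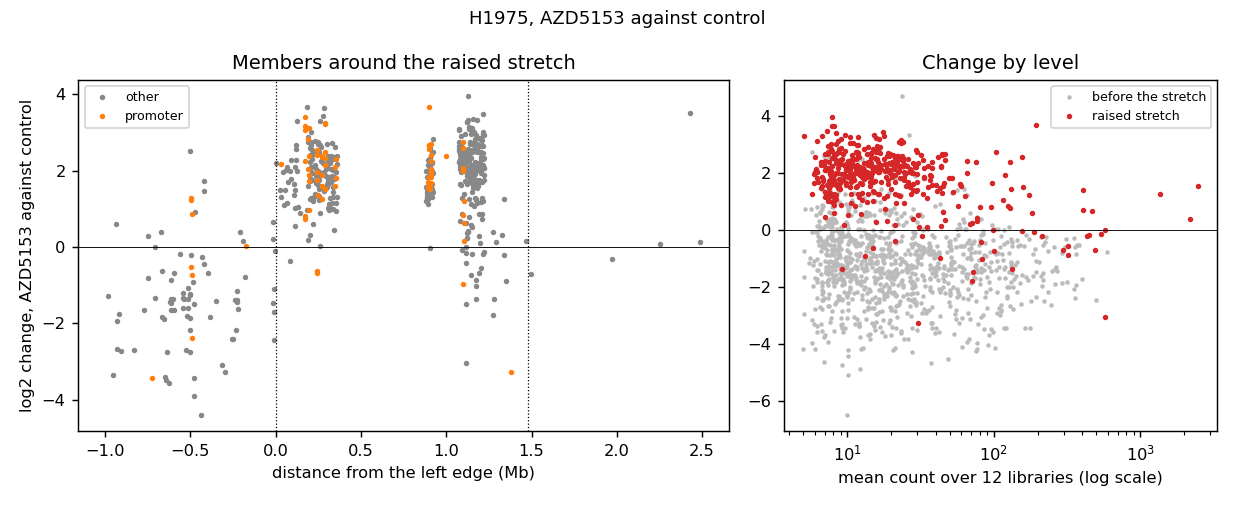
Log2 change of single H1975 members (AZD5153 against control) against the distance from the left edge in Mb, with promoter members in orange and the edges dotted, and against the mean count over the 12 libraries on a log scale, with members of the raised stretch in red and members before it in grey. Most weak members of the raised stretch lie near 2, and the strongest ones spread from below 0 to above 3.

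Single regions departed from the median of the stretch in both directions. A region in an intron at 128164306 to 128164807, nearest to MIR1208, had 127.3, 120.7 and 113.5 CPM in the control libraries and 12.9, 15.7 and 15.2 CPM with AZD5153, with a log2 change of -3.05. All 3 treated libraries were far below all controls, whereas the members nearest to MIR1208 had a median of 2.11. A region in an exon of LINC00824 at 128322710 to 128323211 changed by -1.78, and its promoter region at 128428102 to 128428603 by -3.27. Both lie beyond the right edge that each AZD5153 library alone gave, among members that did not rise. In the other direction, the promoter region of the non-coding RNA gene LINC02912 at 127950551 to 127951052 had 4.64, 4.44 and 3.91 CPM in control and 55.1, 55.7 and 55.3 CPM with AZD5153, a log2 change of 3.68. Intronic regions near MIR1208 at 128182112 and 128185976 changed by 3.14 and 3.09. These 6 regions were the farthest below and above the median of the stretch among members with at least 20 counts, and their values carry no test.

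By gene, and apart from the LINC00824 members (-0.04), the medians within the stretch ran from 1.59 over 30 members nearest to LINC02912 to 2.65 over 6 members nearest to CCAT1, a non-coding RNA gene upstream of MYC. Members nearest to PRNCR1, PCAT2 and MIR1208 had medians of 1.69, 1.77 and 2.11. The regions left out by name had a median of 2.06 over the 832 tested, within the range of the members around them.

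Few bins of the genome were as high as this stretch in the comparison used for the selection, so its ranks are a description. Among 3025 bins of 0.5 Mb, the 3 bins from the left edge's bin onward (all tested regions of chromosome 8, those left out included) ranked 5, 6 and 3 by median change, with medians of 1.91, 1.896 and 2.07. The bin from 143.5 to 144.0 Mb ranked 7, with 1.53. The bins of rank 1, 2 and 4 lay on chromosomes 3, 20 and 14 and held 20 to 24 regions each, against 188 and 213 regions in the larger bins of the raised stretch.

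The peak lists, called by the authors on each library separately, also held more peaks in the stretch. The control and AZD5153 libraries are those of the selection, so their peaks are no separate support. Control libraries had 618, 698 and 787 peaks there, or 0.352 to 0.394% of all their peaks, and AZD5153 libraries had 1833, 1831 and 1597, or 0.825 to 1.22%. DTP libraries had 1408, 998 and 1096, or 0.46 to 0.63%, and combo libraries 1076, 1263 and 1076, or 0.52 to 0.62%. All treated libraries lay above all controls, while the total number of peaks ranged from 130806 to 224437 and was lowest in an AZD5153 library.

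The members before the raised stretch fell in the AZD5153 libraries. Their summed level was 7070 ± 210 CPM in control and 2906 ± 49.4 CPM with AZD5153 (SD, n = 3), a ratio of 0.411, and 5720 ± 250 CPM in DTP and 6222 ± 124 CPM in combo libraries. Of 982 tested, 42 were called higher and 668 lower with a median of -1.25, where all regions gave 26.7% higher and 31.4% lower. These counts describe the comparison used for the selection. The 869 members with at least 5 counts in control had a median of -1.38, and the 113 with fewer, which entered through other groups and had little room to fall, one of 0.05. Between the edges at 128.549 and 142.192 Mb, the median was -0.24 with 124 of 570 called higher and 201 lower. These shares, 21.75% and 35.26%, were near those of all regions. The sum there fell from 2833 ± 77.2 to 2108 ± 62.7 CPM (SD, n = 3).

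At the end of the chromosome the median was 0.56, with 307 of 593 members called higher and 69 lower. All regions of the line gave 26.7% higher and 31.4% lower in this comparison, the one used for the selection. Of these members 358 were promoters, with 206 called higher and 36 lower, where all promoter regions of the line gave 38.0% higher and 21.2% lower. The sum over these members was 2825 ± 40.4 CPM in control and 3441 ± 63.2 CPM with AZD5153 (SD, n = 3). Within it, the bin from 143.5 to 144.0 Mb, which was chosen for its high median, had a median of 1.53, with 87 of 106 members called higher. The 70 tested members nearest to PLEC, the gene of the cytoskeletal linker plectin, had a median of 1.75, while the strongest promoter region of PLEC fell by 0.54 on the log2 scale. Of the 106 members, 39 had under 5 counts in control and entered through the other groups (median 2.32), and the other 67 had a median of 0.89.

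Promoter and other members moved differently over the whole interval. The 722 promoter members had a median of 0.36 and the 1866 others one of -0.37 (log2, AZD5153 against control), a difference of 0.74. In the 3 AZD5153 libraries taken alone the difference was 0.61 to 0.63 (SD 0.01), read on log2 CPM minus the control mean. The 0.74 is from the fitted changes, so the values are on different measures. The difference was not particular to chromosome 8, since all promoter regions of the line had a median of 0.27 and all other regions one of -0.26.

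In the raised stretch the classes did not part, with 2.00 over 65 promoter members and 1.99 over 378 others. Before it promoters fell less, with -0.55 over 180 against -1.38 over 802. Between the later edges the medians were 0.04 over 119 promoters and -0.37 over 451 others. At the end of the chromosome they were 0.58 over 358 and 0.50 over 235.

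**Figure D3:**
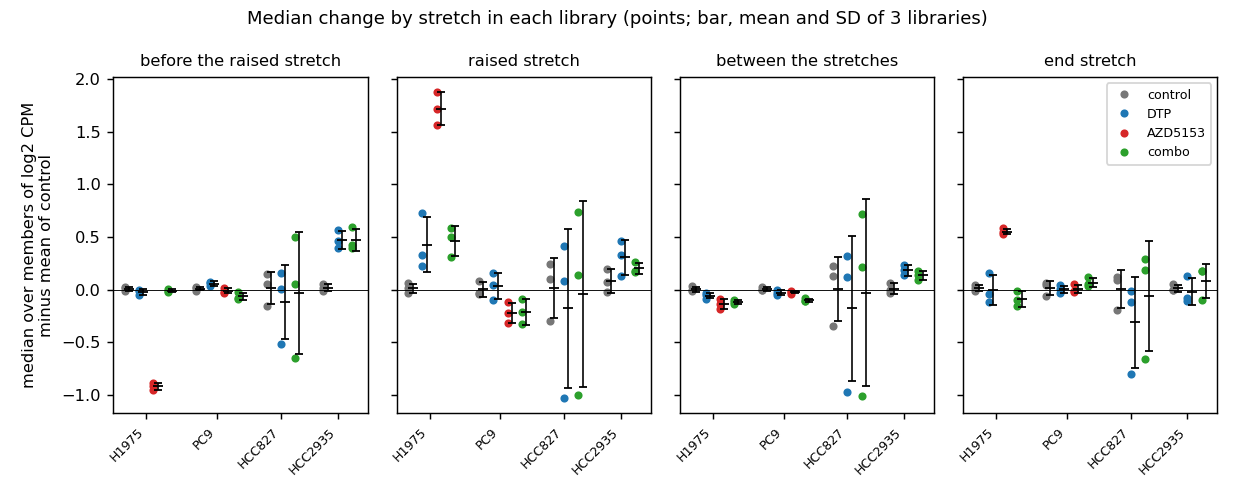
Median over members of log2 CPM minus the mean of the control libraries of the line, for each library (points) with the group mean and SD of 3 libraries (bars), in the stretch before the raised stretch, the raised stretch, the stretch between the later edges and the end stretch. The AZD5153 libraries of H1975 stand apart in the first, second and last panels, and the HCC827 libraries spread over more than 1 log2 unit within a group.

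In DTP and combo cells of H1975 the raised stretch lay above control by less, and the medians before it stayed near control. In the raised stretch the library medians relative to control were 0.73, 0.23 and 0.33 in DTP and 0.50, 0.58 and 0.31 in combo cells. All 6 lay above the 3 control libraries and below the 3 AZD5153 libraries. Here too, members with under 5 counts in control entered through the treated libraries, so part of the rise is fixed by the count minimum. Members with a mean of 5 to 20 counts summed to 1.45 (DTP) and 1.53 (combo) times control. Those with at least 50 counts summed to 1.06 and 1.13 times control. Before the raised stretch the DTP libraries were at -0.05 to 0.00 and the combo libraries at -0.03 to 0.01, within or close to the control range. For DTP against control, 118 of 443 members of the raised stretch were called higher (26.64%) and 30 lower (6.77%). All regions of the line gave 24.9% higher and 27.0% lower, so the higher share was near that of all regions and the lower share was below it. Over all members 628 were called higher and 688 lower, near those shares, and with library size as the only scaling 838 and 574, under which the median of all regions of the line went from 0.02 to 0.22. For combo against control the counts were 136 and 29 in the raised stretch and 678 and 731 over all members, where all regions gave 27.2% and 28.6%. The rise was not particular to the raised stretch. The bin from 143.5 to 144.0 Mb, chosen for its high median with AZD5153, had medians of 0.54 (DTP) and 0.42 (combo) against control. There 44 of 106 members were called higher and 4 lower in DTP cells, and 40 and 3 in combo cells. Both comparisons share the control libraries with each other and with the selection.

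Between combo and DTP libraries, a comparison the selection did not use, the segmentation placed no edges. Of 2588 members 253 were called higher and 238 lower, where all regions gave 11.5% higher and 9.48% lower, and with library size as the only scaling the counts were 188 and 308. In the raised stretch the median was 0.06 with 18 of 443 called higher and 17 lower, and in the first stretch it was 0.06 with 165 of 982 higher and 95 lower. The end of the chromosome went the other way, with a median of -0.16 and 19 of 593 higher and 69 lower, and in the bin from 143.5 to 144.0 Mb 4 of 106 were higher and 19 lower. The segmentation returned 1 segment here, as it did for DTP and for combo against control, where the raised stretch lay above control. It therefore does not exclude smaller shifts. The 18 higher calls in the stretch stand beside 395 for AZD5153 alone, and the difference between these responses was not tested.

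With the 3 libraries of each group summed and the dispersion of HCC2935, the share of members called between combo and DTP went from 19.0% to 5.72%. The largest rise between these groups was an intronic region of ASAP1, which encodes a GTPase-activating protein of the cytoskeleton, at 130375936 to 130376437. It had 2.30, 1.93 and 1.903 CPM in DTP and 6.03, 7.48 and 6.53 CPM in combo libraries (log2 change 1.71, SE 0.22, adjusted p 1.77e-11). The largest fall was an intronic region of SNTB1, a syntrophin gene, at 120687697, with 0.67 to 1.15 CPM in DTP and at most 0.13 CPM in combo libraries.

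The largest changes of single members in H1975 lay outside the raised stretch. With AZD5153, a promoter region at 133046237 nearest to the microRNA gene MIR7848 had at most 0.155 CPM in control and 6.503 to 7.10 CPM in treated libraries. A region at 142031322 nearest to MIR4472-1 had 13.5 to 18.4 CPM in control and 0.17 to 0.80 CPM in treated libraries, a log2 change of -5.11. A region at 110835977 nearest to the non-coding RNA gene LINC01608 had no count in control, 3.47 to 4.61 CPM in DTP and 5.61 to 7.99 CPM in combo libraries. An intergenic region at 135189835 near LINC01591 had 12.3 to 14.4 CPM in control, 0.11 to 0.45 CPM in DTP and 0.11 to 0.13 CPM in combo libraries.

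The promoters of 67 genes in 8 lists were read next, of which 58 had a tested promoter member in H1975. With AZD5153, 22 were called higher and 22 lower, where all promoter regions of the line gave 38.0% higher and 21.2% lower. The lists below stand beside the same shares. Such shares, here and in the other comparisons, cover weak promoter regions too, whereas each listed gene was read at its strongest promoter member. The sets are therefore unlike, and no excess is read from them. Of the 23 before the raised stretch 3 rose and 15 fell, of the 11 between the later edges 3 rose and 4 fell, and of the 24 at the end of the chromosome 16 rose and 3 fell.

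Among genes of transcription and chromatin, 4 of 12 rose and 5 fell. TRPS1, a GATA-type repressor, went from 17.2, 15.9 and 14.2 CPM in control to 6.45, 5.05 and 6.16 CPM (log2 change -1.39), and ATAD2, a bromodomain ATPase, changed by -1.09. RAD21, a cohesin subunit, changed by -0.44. ZC3H3, PUF60, ZFAT and MAFA were higher by 1.298, 0.65, 0.67 and 0.25. HSF1, the regulator of the heat shock response, changed by 0.34 without passing the threshold (adjusted p 0.0648).

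Among signalling and adhesion genes, 1 of 11 rose and 6 fell. LRATD2, the last protein-coding gene read before the left edge, went from 58.1, 59.7 and 56.9 CPM in control to 10.6, 10.6 and 11.9 CPM, a log2 change of -2.39. TRIB1, a pseudokinase gene, changed by -0.76, and DEPTOR, an mTOR inhibitor, by -0.59. The riser was CCN3, a matricellular protein gene, by 0.38. In the same region of LRATD2 the DTP libraries had 50.03 to 52.4 CPM and the combo libraries 60.7 to 64.7 CPM.

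Among matrix and bone genes 2 of 6 rose and 4 fell, with HAS2, a hyaluronan synthase, at -1.55 and COL14A1, a collagen gene, at -1.60. KCNQ3, a potassium channel subunit and 1 of 6 channel and neuronal genes, went from 14.999, 16.7 and 13.9 CPM to 1.42, 1.57 and 0.80 CPM, a log2 change of -3.63 and the largest fall of the lists. Of the channel and neuronal genes 2 rose, ARC by 1.05 and KCNK9 by 0.71.

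At the end of the chromosome, 4 of 6 genes of the LY6 family of surface proteins rose and 2 fell. PSCA, prostate stem cell antigen, went from 0.77, 0.67 and 0.54 CPM in control to 8.64, 6.97 and 9.13 CPM, a log2 change of 3.64. SLURP1 and LYNX1 rose by 1.31 and 1.06, and LY6D changed by -1.80. Metabolic genes gave 4 higher and 1 lower of 7, among them GPAA1 (0.93), which acts in anchoring proteins to the membrane, and CYC1 (0.73), a subunit of the respiratory chain. Genes of translation gave 3 higher and 2 lower of 6, and genes of replication and repair 2 higher and 1 lower of 4.

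In DTP cells of H1975, 12 of the 58 promoters were higher and 14 lower than in control, with a median of 0.03, where all promoter regions gave 23.2% higher and 20.4% lower. COL14A1 went from 3.87, 4.17 and 2.70 CPM to 11.8, 13.6 and 13.1 CPM (log2 change 1.85, SE 0.17, adjusted p 1.31e-21), opposite in sign to its change with AZD5153 alone. COL22A1 rose by 2.05, NSMCE2, a SUMO ligase of DNA repair, by 1.15 and PSCA by 2.21. HAS2 fell by 0.96 and ST3GAL1, a sialyltransferase, by 0.68. Between combo and DTP cells 10 were higher and 6 lower, where all promoter regions gave 15.3% and 6.76%, and ARC (-0.89) and GPIHBP1 (-0.79) showed the largest changes.

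**Figure D4:**
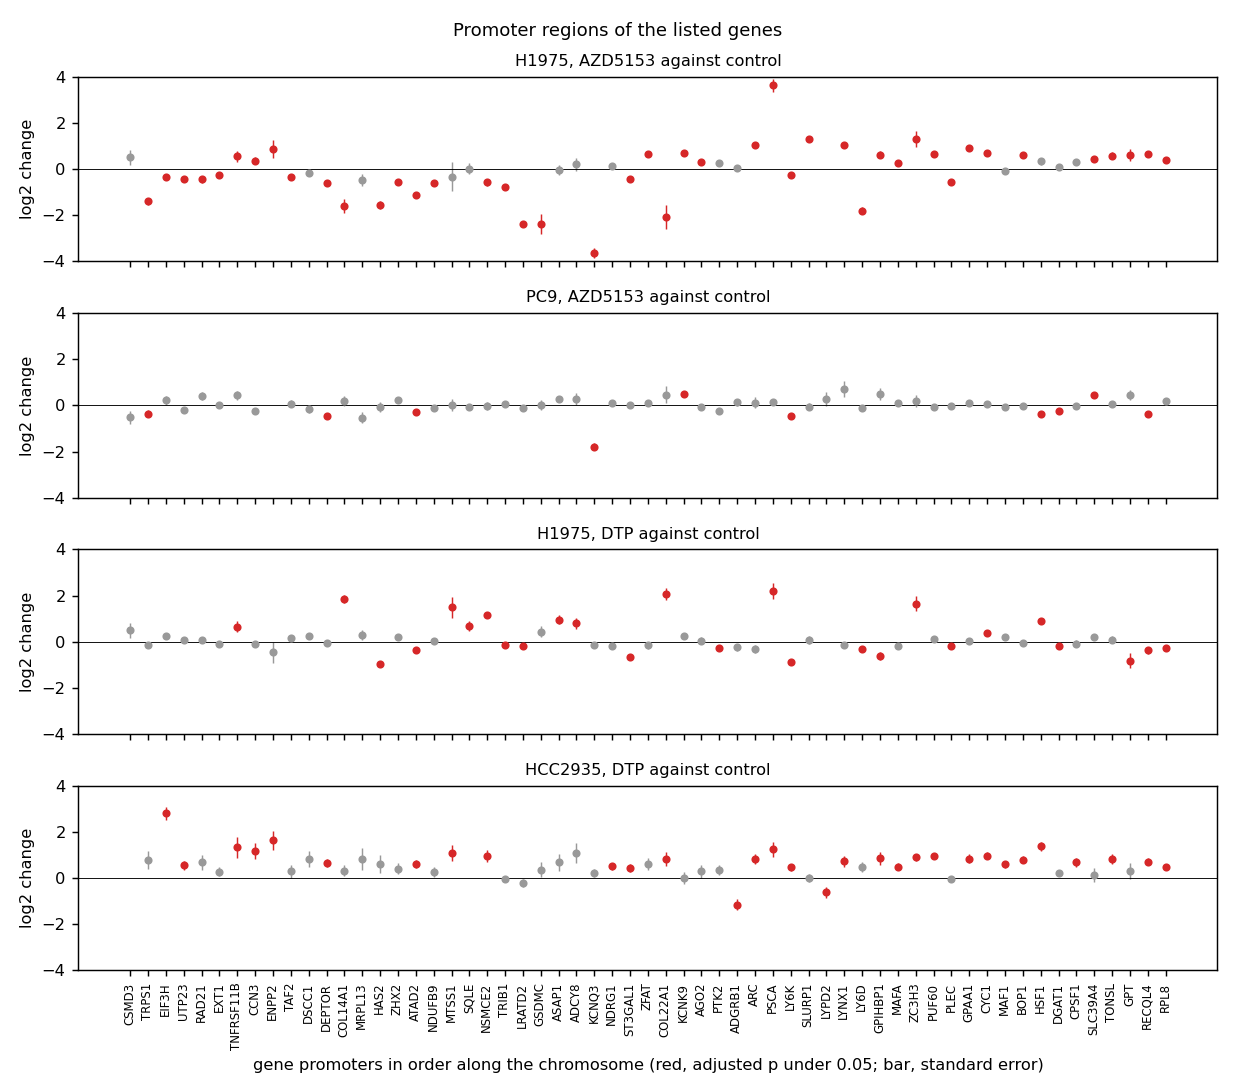
Log2 change (points) and standard error (bars) of the promoter regions of the listed genes in order along the chromosome, for AZD5153 against control in H1975 and PC9 and for DTP against control in H1975 and HCC2935. Red points passed an adjusted p under 0.05. In H1975 with AZD5153, 15 of 23 genes before the raised stretch are lower and 16 of 24 at the end are higher, while in HCC2935 DTP cells 29 of 57 are higher and 2 lower.

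PC9 cells given the same dose of AZD5153 for the same time showed no such stretches. Over 2137 members the median was 0.00, with 231 called higher and 309 lower, where all PC9 regions gave 11.2% higher and 14.6% lower. A segmentation of chromosome 8 returned 1 segment, as it did in H1975 for DTP against control, where the raised stretch lay above control. The interval of the H1975 raised stretch held 44 members in PC9, or 29.7 per Mb, against 334 per Mb in H1975. Their library medians relative to control were 0.08, -0.04 and -0.04 in control and -0.12, -0.23 and -0.32 in AZD5153 libraries, so that all treated libraries lay below all controls, opposite to H1975. The sum over these members was 362 ± 18.9 CPM in control and 278 ± 2.26 CPM with AZD5153 (SD, n = 3). Of 37 tested, 7 were called higher and 14 lower. With summed libraries and the dispersion of HCC2935 the share of all members called in PC9 went from 25.3% to 13.5%.

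Promoters and other members of PC9 differed by 0.04 (0.02 over 815 against -0.02 over 1322, log2). Of 58 listed promoters 2 were higher and 8 lower, where all promoter regions of PC9 gave 9.57% and 11.3%. KCNQ3 fell here too, from 30.2, 26.6 and 19.8 CPM in control to 8.38, 7.42 and 6.10 CPM with AZD5153 (log2 change -1.78, SE 0.16, adjusted p 1.1e-24). DEPTOR changed by -0.44, TRPS1 by -0.35 and ATAD2 by -0.29, each called, whereas LRATD2 had 49.4 to 53.3 CPM in control and 46.7 to 50.1 CPM in treated libraries. The largest rise was an intronic region of KHDRBS3, an RNA-binding protein gene, at 135601797, from 0.50 to 2.54 CPM in control to 8.91 to 10.8 CPM (log2 change 2.96). The largest fall was the promoter region of CCAT1 at 127222451, from 8.26 to 10.4 CPM to 0.70 to 0.96 CPM (log2 change -3.42). In H1975 the CCAT1 members had the highest median of the raised stretch.

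In PC9 DTP cells the median over members was 0.00 against control, with 306 called higher and 349 lower where all regions gave 15.4% and 16.4%. Segmentation of chromosome 8 placed an edge in the interval here, with medians of 0.11 up to 121.151 Mb and -0.03 from 121.164 Mb. KCNQ3 was at 10.2, 9.80 and 9.26 CPM (log2 change -1.36), and LY6K, of the LY6 family, fell from 24.1 to 34.6 CPM to 8.51 to 12.01 CPM (log2 change -1.50). Between combo and DTP cells 177 members were higher and 288 lower, where all regions gave 10.6% and 11.7%. For this comparison the segmentation gave medians of -0.18 from 106.209 to 133.883 Mb and 0.065 from 133.886 Mb. The members before the raised stretch had a median of -0.17 with 45 of 591 higher and 110 lower, and those at the end of the chromosome 0.12 with 95 of 926 higher and 56 lower. The H1975 interval itself had a median of -0.47 over 37 members. The largest fall lay there, in the exon region of LINC00824 at 128322643, with 12.5 to 14.7 CPM in DTP and 0.27 to 0.53 CPM in combo cells (log2 change -4.85, SE 0.36, adjusted p 2.27e-33). KCNQ3 fell further, to 3.41, 3.71 and 4.79 CPM (log2 change -1.30), and GPIHBP1, which anchors lipoprotein lipase, rose by 1.00.

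**Figure D5:**
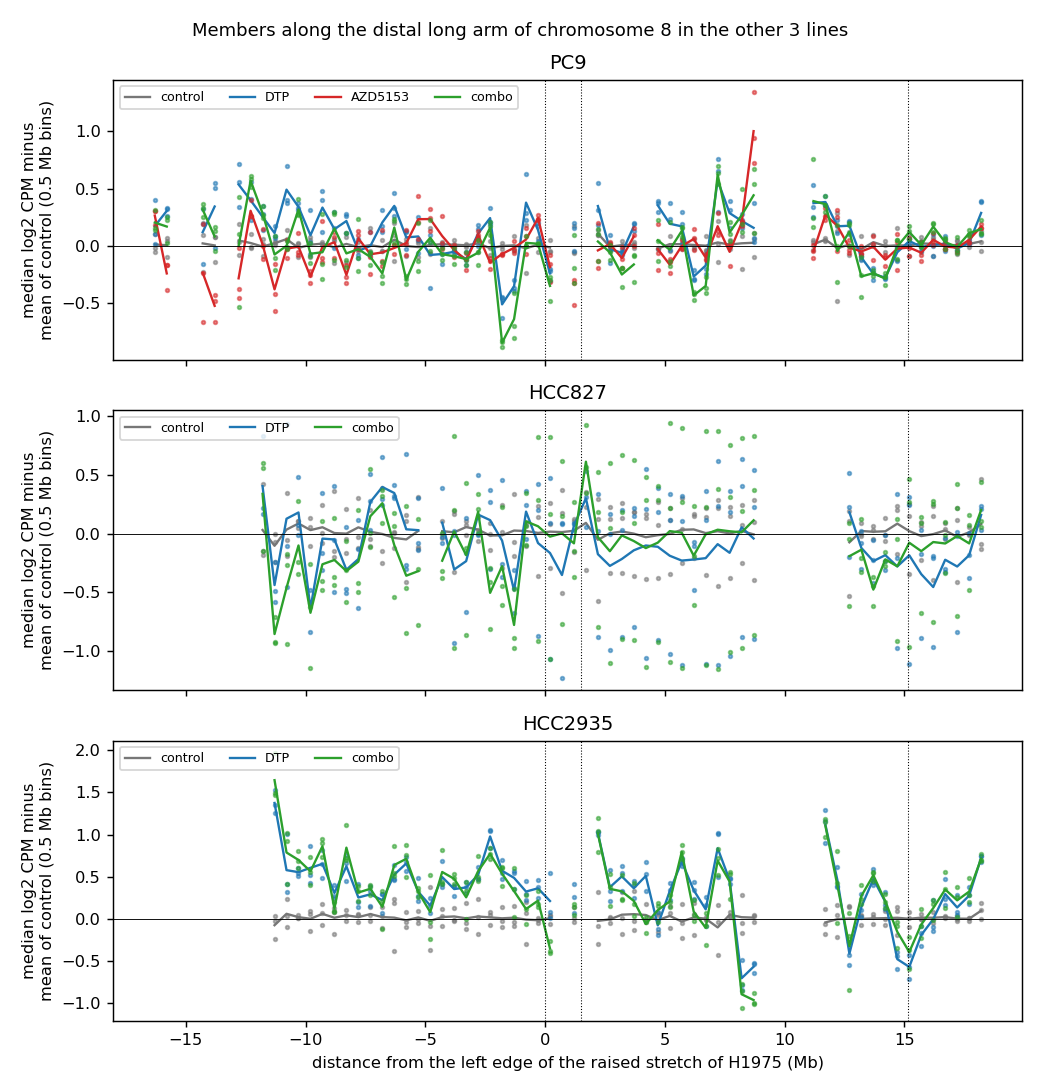
As in the plot of H1975 members along the arm, for PC9, HCC827 and HCC2935, each with its own vertical scale, with distances from the left edge of the raised stretch of H1975. No group of PC9 rises or falls at the dotted edges as H1975 does, libraries of a group in HCC827 lie up to more than 1 log2 unit apart, and DTP and combo libraries of HCC2935 lie above control over most bins with a dip before the last edge.

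Members of HCC827 were dense beyond the H1975 raised interval. The stretch from 128.549 to 142.192 Mb carried 2810 members, or 206 per Mb, against 35.9 to 62.4 per Mb in the other lines, and the H1975 raised interval 339 members, or 229 per Mb. Library medians over all members were 0.11, 0.20 and -0.30 in control, 0.08, 0.25 and -0.90 in DTP and 0.63, 0.18 and -0.92 in combo libraries. Replicate 3 was the lowest of its group each time, with 1.42 to 1.71% of its counts in members against 1.82 to 2.24% in the other libraries. The part of replicate 3 in any difference below was tested only by leaving it out.

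For DTP against control in HCC827 the median over 2290 members was -0.21, and without DTP replicate 3 it was 0.18. Of these members 1 was called higher and none lower, where all regions gave 0.0158% higher and 0.00607% lower. It was an intronic region of LRATD2 at 126628561, with 4.48, 6.36 and 2.95 CPM in control and 27.2, 34.4 and 34.4 CPM in DTP libraries (log2 change 2.82, SE 0.39, adjusted p 0.0497), and it was not called when any library was left out. Replicate numbers paired the libraries in HCC827, and with the replicate number as a block 24 members were higher and 42 lower, where 3.88% of all regions were called in either direction. At an unadjusted p under 0.05 there were 129 members, and DESeq2 called 10.

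For combo against DTP the median was 0.16, with none called higher or lower by edgeR, 0.0% of all regions called in either direction, 49 members at an unadjusted p under 0.05 and none called by DESeq2. The block fit called 1 member lower, where 0.0304% of all regions were called. The median was -0.15 without combo replicate 1 and 0.54 without combo replicate 3, so its sign rested on single libraries. Segmentation of this comparison gave medians of -0.22 from 103.185 to 123.175 Mb and 0.135 from 123.179 Mb, and was not repeated without single libraries. Of the listed promoters 50 were tested and none was called in either comparison.

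In HCC2935 DTP cells the distal arm lay above control over most of its length. Of 1468 members tested against control, 370 were called higher and 131 lower with a median of 0.23, where all regions of the line gave 18.7% higher and 18.6% lower with a median of -0.01. The share of members called was 24.1 to 30.8% when a library was left out, against 34.1% with all of them. Before 127.047 Mb the median was 0.52, with 150 of 442 higher and 34 lower. Library medians there relative to control were 0.05, -0.02 and 0.02 in control, 0.56, 0.46 and 0.40 in DTP and 0.42, 0.59 and 0.40 in combo libraries, with no overlap between treated and control libraries. The summed level went from 1840 ± 49.0 to 2436 ± 139 CPM in DTP cells (SD, n = 3), a ratio of 1.32. Segmentation put this within a stretch from 0.206 to 141.184 Mb with a median of 0.45, which is nearly the whole chromosome.

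A second stretch of HCC2935 ran the other way. From 141.202 to 142.624 Mb, limits taken from this same comparison, 10 of 188 members tested were called higher and 50 lower with a median of -0.63. Library medians were -0.09, 0.02 and 0.07 in control, -0.49, -0.61 and -0.35 in DTP and -0.16, -0.55 and -0.27 in combo libraries. In the same interval the H1975 DTP libraries had a median of -0.22 and the PC9 DTP libraries one of -0.05 against their controls. The H1975 raised interval held 40 members in HCC2935, of which 27 were tested with a median of 0.24.

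Of 57 listed promoters 29 were higher and 2 lower in HCC2935 DTP cells, with a median of 0.59. Of all 51962 promoter regions of the line, weak ones included, 8256 were higher and 7692 lower. The largest change was at a promoter region of EIF3H, a subunit of a translation initiation factor, at 116658249 (the other lines were read at a region near 116755657), from 2.18, 1.77 and 1.57 CPM in control to 15.01, 13.7 and 10.9 CPM (log2 change 2.80, SE 0.28, adjusted p 9.96e-11). HSF1 went from 7.86, 8.86 and 5.32 CPM to 21.1, 15.1 and 21.4 CPM (log2 change 1.36), and CYC1 rose by 0.95 and PUF60 by 0.93. The promoters that fell were those of ADGRB1, an adhesion receptor gene, by 1.17 and LYPD2, of the LY6 family, by 0.63. Among single members the largest rise was an intergenic region at 126375198, with at most 0.59 CPM in control and 5.73 to 10.6 CPM in DTP cells. The largest fall was an intergenic region at 133401343 near ST3GAL1 (log2 change -2.39).

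Between combo and DTP cells of HCC2935, 13 members were higher and 81 lower with a median of 0.03, where all regions gave 1.9% higher and 6.4% lower. Segmentation gave medians of -0.03 up to 141.313 Mb and 0.12 from 141.318 Mb. Of the listed promoters, TRPS1 rose by 0.94 and MRPL13, a mitochondrial ribosome gene, by 1.05, while NSMCE2 changed by -0.89 and MAF1, a repressor of RNA polymerase III, by -0.48. The largest fall was an intronic region of the non-coding RNA gene LINC00964 at 124856646, from 11.8 to 16.0 CPM to 1.12 to 1.41 CPM (log2 change -3.50).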

How the data were processed

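Accessibility was measured in 42 libraries of 4 lines, in 14 groups of 3. Titles and the series design name ATAC-seq, while the extraction protocol describes a histone acetylation ChIP, and the titles were followed. Per the submitters' processing notes the reads were aligned to hg38 with BWA 0.7.17 and handled with SAMtools 1.9 and deepTools 3.4, and the authors called peaks with MACS2 2.2.6, counted with featureCounts 2.0.0 and annotated with ChIPseeker 1.29.1. The deposited count tables, 1 per line, hold raw counts in merged regions of 502 bases. The authors' peak lists, 1 per library, give fold enrichment and −log10 of p and q values. The distance to the nearest start and the annotation come from the authors' annotated tables, which hold part of the regions. The study's publication given with the series does not describe this assay.

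A region outside the annotated tables took the symbol of the nearest of 610 transcript starts in those tables, where a RefSeq table had been planned, and a promoter lay within 3 kb of a start or was so annotated. Every column was matched to a sample. Within each line all regions passing filterByExpr were fitted with edgeR 4.0.16 (quasi-likelihood test, TMM scaling, R 4.3.3) with Benjamini-Hochberg adjustment over all regions, and calls used an adjusted p under 0.05. CPM are counts on the TMM-scaled library size, and log2 CPM used a prior count of 2. Stretches were found by segmenting log2 CPM minus the control mean in bins of 0.5 Mb and refining each edge to regions, with pandas 2.3.3 and numpy 2.4.6. Fits and segmentation were also run on simulated data, for the fits with means and dispersion taken from the main fit. The members, gene lists and tests were chosen with earlier results of these data known. Named were listed genes at their strongest promoter member, the largest called rise and fall of each comparison with libraries that did not overlap and a mean above the members' median, the 3 members farthest above and below the raised stretch's median with at least 20 counts, and regions at edges and thresholds. The bin from 143.5 to 144.0 Mb and the HCC2935 stretch from 141.202 to 142.624 Mb were chosen after their values were seen.

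Libraries with the same replicate number deviated together in HCC827 (9 correlations of 0.16 to 0.85), so the paired fit is given there. In H1975 (-0.05 to 0.03), PC9 (-0.03 to 0.02) and HCC2935 (-0.20 to 0.31) the numbers did not pair the libraries. Alternatives were another scaling, no filter, DESeq2 1.42.0, the replicate block, leaving out each library, stricter minimums and other bins.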

Additional observations from a re-analysis of the deposited data

Results flagged for a closer look

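The regions left out by name (MYC, CASC11, PVT1 and 2 other CASC genes) were outside the comparisons of members, and in H1975 with AZD5153 their median log2 change was 2.06, above the level in the control libraries. Their part of the count tables thus moved by about as much as the members around them.

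In 5 comparisons every library of a line lay on one side of the mean of its control libraries and every library of another line on the other side of its own, and none of these differences was tested. With AZD5153, the raised stretch of H1975 was above control in 3 of 3 libraries and the same interval of PC9 below in 3 of 3, a difference of 1.94 between the group means (log2). In DTP cells, the stretch before it was below control in H1975 and above in PC9, a difference of -0.081, and below in H1975 and above in HCC2935, a difference of -0.50. From 128.549 to 142.192 Mb the DTP libraries of H1975 and PC9 were below control and those of HCC2935 above, with differences of -0.24 and -0.21. The differences of H1975 and PC9 DTP cells from their own controls were small, and in the stretch before the raised one a DTP library of H1975 lay within the range of the control libraries, with group means of -0.02 before the raised stretch in H1975 and -0.03 beyond it in PC9.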

How the results depend on the processing

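Of 396 alternative values for 30 results, 306 moved by less than the replicate spread or, for shares of members called, by less than 1.5 times. Medians are log2 changes, shares are percent of members called, and the cause of each change was not tested. With library size as the only scaling, the median of all H1975 regions went from -0.04 to 0.18 with AZD5153. The members' medians became 0.15 (AZD5153), 0.27 (DTP), -0.10 (combo against DTP) and 0.17 (combo against control) in H1975 and 0.0479, 0.0487 and -0.0739 in PC9, the raised stretch 2.21 and the HCC827 DTP share 0.0. With DESeq2 size factors the H1975 AZD5153 median was -0.042. With at least 20 counts, the medians were -0.41 (AZD5153), -0.0338 (DTP) and 0.0235 (combo against control) in H1975, 0.0039 for PC9 combo against DTP and 0.39 for HCC2935 DTP, the HCC827 DTP share 0.258, the HCC2935 combo share 10.6, the right edge 128.2235 Mb, the raised stretch 1.69, the HCC2935 stretch before 127.047 Mb 0.39, and promoter minus other 0.80 in H1975 and 0.0037 in PC9. Over annotated regions they were -0.22, -0.0277 and 0.0311 in H1975 and 0.42 in HCC2935 DTP, with shares of 0.22 (HCC827 DTP) and 12.7 (HCC2935 combo). Leaving out regions by the authors' symbols alone, chosen after seeing the data, gave 0.16 with AZD5153 and 0.16 for combo against control in H1975.

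Without a filter the shares fell to 11.5 for H1975 combo against DTP, 15.2, 18.1 and 11.6 in PC9 and 2.70 for HCC2935 combo against DTP, with DESeq2 to 11.03, 14.8, 19.4, 11.2 and 3.26, and with summed libraries to 5.72 in H1975 and 13.5, 18.0 and 9.03 in PC9, while HCC827 rose to 9.13 and 2.84. DESeq2 gave 0.778 for HCC827 DTP and 21.5 for HCC2935 DTP, 16.7 of it higher. In the paired fit (replicate block) the HCC827 shares were 2.88 and 0.044, and in the other lines the block moved no share by over 1.5 times. The left edge was 127.0427 Mb with AZD5153 library 1 alone and 127.0595 Mb with DTP libraries as reference. The right edge was 128.2741 Mb with AZD5153 library 1 alone, 128.2987 Mb with the other libraries alone and with bins of 1 or 0.25 Mb, 128.3285 Mb with DTP or combo libraries as reference, and 128.1521 Mb with promoters only. Members with at least 5 counts in control gave 1.82 in the raised stretch, and a promoter limit of 1 kb a difference of 0.67.

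Leaving out 1 library gave medians of -0.087 to -0.0509 (AZD5153) and 0.0313 to 0.0928 (combo against control) in H1975, shares of 0.0 to 0.0 for HCC827 DTP and 2.81 to 4.17 for HCC2935 combo against DTP, a right edge of 128.2987 to 128.5322 Mb, and promoter minus other of 0.66 to 0.78 in H1975 and 0.0463 to 0.0749 in PC9. In HCC827 it moved the medians over -0.50 to 0.18 (DTP) and -0.15 to 0.54 (combo against DTP), so no direction is given there.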
